A study of Mus musculus with 2 samples.

Results

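The p21-high non-cycling cells of passage 5 (PC5) were 548 of the 15513 cell barcodes in the series. They were taken from the 10629 PC5 barcodes by a rule that uses measured values. Of these barcodes, 9950 had more than 1000 genes and under 20% mitochondrial UMIs (unique molecular identifiers, which tag single captured RNA molecules). No UMI of *Mki67* or *Top2a*, genes expressed while cells divide, was found in 5475 of the kept cells, here called non-cycling. The p21-high cells were chosen by their own *Cdkn1a* counts, as the 10% of non-cycling cells with the highest share of *Cdkn1a* UMIs, and the other 4927 served as the contrast. Cells of 1 library are not replicates, so no test was made. All intervals are 95% intervals. Those of levels and ratios cover the counting error of UMIs only. Those of shares of cells take the cells of 1 library as independent draws and are a description, not a test. None covers the spread between cultures.

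The study cultured primary brain pericytes (PCs), the mural cells of capillaries, and sequenced them as single cells in droplets from the 3′ end of the RNA. Each isolation pooled the brains of 6 female wild-type C57BL/6N mice aged 6 to 8 weeks. There was 1 library at passage 5 and 1 at passage 20 (PC20), with no other treatment or allele. By the study's methods the passages came from separate isolations, whereas the deposited description mentions only 1, so passage and isolation cannot be told apart. The PC5 library held 223978480 UMIs and the PC20 library 191306354, and 20 barcode sequences occurred in both libraries, 3 of them among the p21-high cells of PC5.

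*Cdkn1a* encodes p21, an inhibitor of cyclin-dependent kinases that holds cells in G1 and is held at high levels in many senescent cells. Its best known inducer is the transcription factor p53, which also switches on its own inhibitor *Mdm2*, DNA repair genes and genes of cell death. A high p21 level can accompany a brief pause in the cell cycle as well as lasting arrest, and RNA levels alone do not separate them.

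*Cdkn1a* lies on chr17:29090976-29100727 of GRCm38 on the plus strand. RefSeq (GRCm38.p6) lists 2 transcription starts for it, 2790 bases apart, and the promoter windows shown here run from 250 bases before a start to 50 after it. They were searched for the p53 response element consensus, a 20-base palindrome that reads the same on both strands. Both of its CNNG cores had to be present, with no spacer between the pair of 10-base repeats and at most 1 mismatch elsewhere. Such a match was found in 22 of 32851 promoter windows (0.0670%), in the upstream *Cdkn1a* window, and in the windows of 2 of the 27 listed p53 targets that had one, *Ccng1* and *Rps27l*. These 3 windows are printed because they belong to the gene that chose the cells and to 2 of the p53 targets described later. Capitals mark the match, which began 51 bases before the start in *Cdkn1a*, 195 in *Ccng1* and 117 in *Rps27l*.
Cdkn1a, chr17:29090729-29091028, plus strand: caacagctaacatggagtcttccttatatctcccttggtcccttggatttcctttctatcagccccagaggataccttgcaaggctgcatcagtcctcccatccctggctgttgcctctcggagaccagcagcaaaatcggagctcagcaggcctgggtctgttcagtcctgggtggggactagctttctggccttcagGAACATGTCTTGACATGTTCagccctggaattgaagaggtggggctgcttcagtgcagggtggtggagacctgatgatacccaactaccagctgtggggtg
Ccng1, chr11:40755237-40755536, minus strand: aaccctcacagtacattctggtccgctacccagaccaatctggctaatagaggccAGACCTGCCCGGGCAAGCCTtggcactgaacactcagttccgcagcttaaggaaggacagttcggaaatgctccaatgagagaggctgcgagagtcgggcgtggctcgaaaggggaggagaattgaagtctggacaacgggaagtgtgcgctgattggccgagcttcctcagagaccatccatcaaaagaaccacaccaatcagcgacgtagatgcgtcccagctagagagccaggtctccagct
Rps27l, chr9:66946163-66946462, plus strand: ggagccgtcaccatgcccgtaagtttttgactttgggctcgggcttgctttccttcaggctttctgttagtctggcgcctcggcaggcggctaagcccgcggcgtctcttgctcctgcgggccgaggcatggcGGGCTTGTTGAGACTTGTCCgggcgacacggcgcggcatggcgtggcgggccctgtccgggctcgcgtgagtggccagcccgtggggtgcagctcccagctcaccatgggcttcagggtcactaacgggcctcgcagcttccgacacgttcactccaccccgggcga
The downstream *Cdkn1a* window held no match. A match describes these letters only, and 3′ libraries do not show which start a transcript came from.

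The values that chose the cells are given as a description. The *Cdkn1a* share of the p21-high cells was 8.42 UMIs per 10000 at the lowest, 10.3 at the median and 70.5 at the highest, against a median of 3.44 and a highest value of 8.40 in the other non-cycling cells. The last cell inside the rule had 19 *Cdkn1a* UMIs of 22571, and the first one outside had 11 of 13089. Since the rule takes the upper end of the ranked shares, these values do not show whether the cells are a type of their own. Of the cells ranked, 143 p21-high cells and 188 others lay within 10% of the limit. All p21-high cells together held 2 *Cdkn1a* UMIs per cell at the lowest, 17 at the median and 62 at the highest. The median of the other non-cycling cells was 6. In the 306 non-cycling PC5 cells with no *Cdkn1a* UMI, the gene went undetected at their depth.

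**Figure D1:**
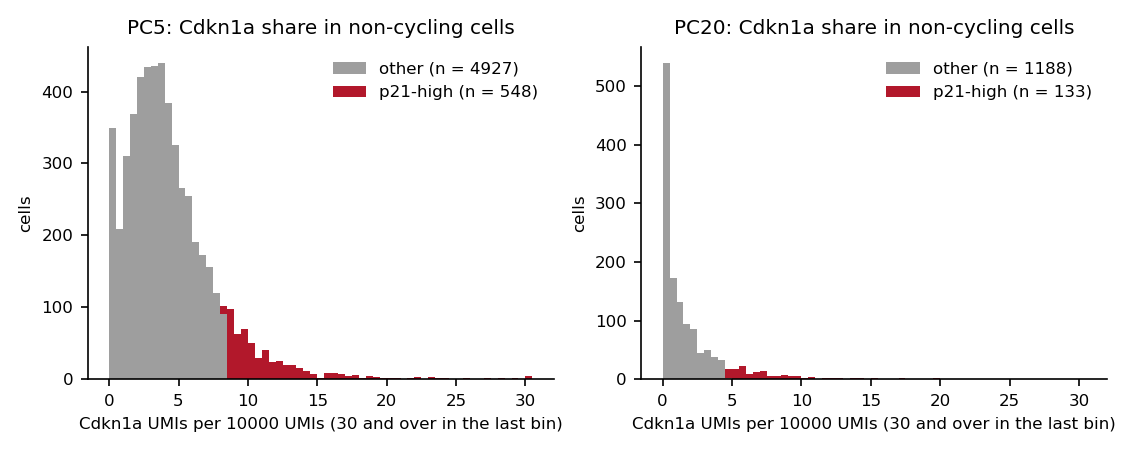
Number of non-cycling cells (y axis) by *Cdkn1a* UMIs per 10000 UMIs (x axis) in PC5 (left) and PC20 (right), with the p21-high cells in red and the others in grey, stacked. By the rule the red cells are the right end of the plot in each library, beginning at 8.42 per 10000 in PC5 and at 4.55 in PC20.

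Summed over cells, the *Cdkn1a* level was 1120 CPM (UMIs per 1000000) in the p21-high cells, with an interval of 1098 to 1142, and 369 CPM in the other non-cycling cells. The log2 ratio was 1.60. Part of such a gap comes from ranking and measuring on the same UMIs. With each UMI put at random in 1 of 2 parts, 1 to rank the cells and 1 to measure them, the ratio was 1.22 (910 against 390 CPM). Cells with *Mki67* or *Top2a* UMIs held 360 CPM, and 180 of 4475 (4.02%, Clopper-Pearson interval 3.47% to 4.64%) reached the share of the lowest p21-high cell.

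The p21-high cells were shallower than the others, with a median of 15602 against 19630 UMIs and 3752 against 4159 genes. Their median mitochondrial share was 2.75% against 2.64%, and their ribosomal protein share was 31.5% against 34.0%. With all non-cycling cells divided into 3 equal parts by UMIs, 275 of the p21-high cells fell in the shallowest part, 178 in the middle one and 95 in the deepest. RNAs that stay in the nucleus took a larger share of their UMIs. All 5 listed had a log2 ratio above 0, beside a median of 0.07 over all genes counted below. *Malat1* was at 8634 against 6382 CPM (log2 ratio 0.44) and *Neat1* at 218 against 150 CPM (0.54). *Xist* (0.37), *Meg3* (0.36) and *Kcnq1ot1* (0.04) lay below 0.5. In the deepest part of the cells the *Malat1* ratio was 0.06 (5012 against 4806 CPM) and the median of the 5 was -0.09. Values within that part, or with cells thinned to 1 depth and ranked again, stand beside several of the results that follow. For results given without such values, the part of depth and nuclear RNA was not tested. Doublets were neither called nor removed, and the largest p21-high cell held 44900 UMIs.

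Genes were counted if 10% or more of either group's cells held a UMI of them and each group had over 3 UMIs. Of these 8840 genes, 485 (5.49%) were higher in the p21-high cells by a log2 ratio of 0.5 or more, a size rule and not a test. A further 92 (1.04%) were lower by as much. Past a log2 ratio of 1 there were 58 higher (0.656%) and 6 lower (0.0679%). The median ratio of all genes counted was 0.07. The 3 genes of the rule were left out of these counts. A gene seen in 10% of cells of 1 group alone was let in by the group where more cells held it. This was so for 100 genes through the p21-high cells, 77 of them higher, and for 358 through the others, 40 of them lower. Of the 8382 genes that passed in both groups 408 (4.87%) were higher and 52 (0.620%) lower. The split depended on scaling: with ratios centred on the median gene 335 were higher and 160 lower, and with library totals that left out ribosomal protein and mitochondrial genes 366 were higher and 135 lower. Most genes thus lay close to equal levels, and the larger differences were mainly towards higher levels.

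**Figure D2:**
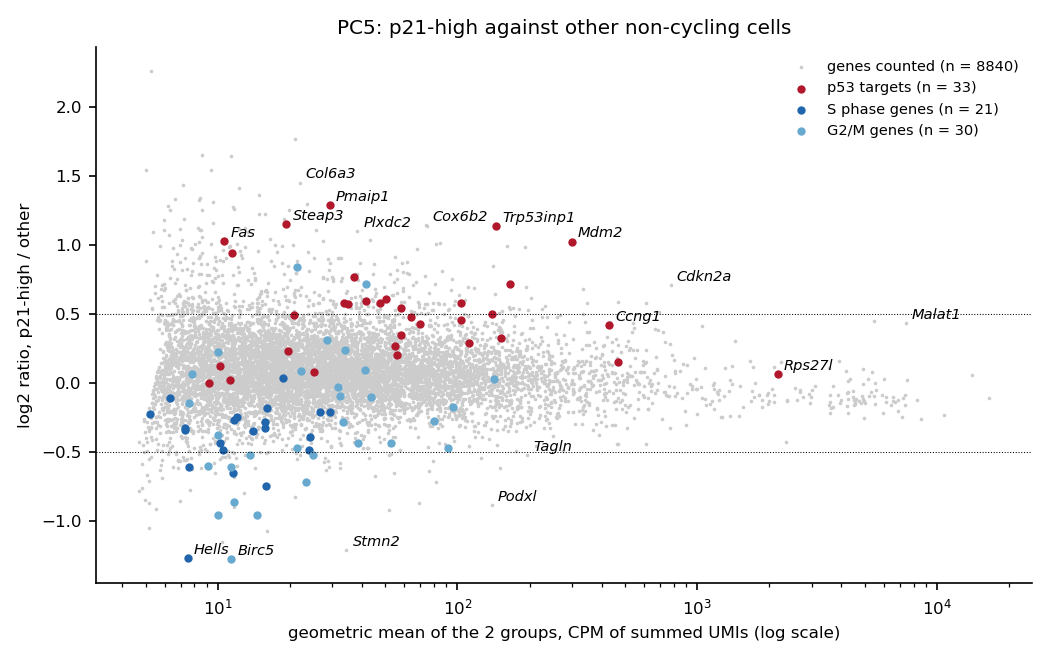
Log2 ratio of CPM, p21-high over other non-cycling PC5 cells (y axis), against the geometric mean CPM (x axis, log scale) for the 8840 genes counted, with dotted lines at 0.5 and -0.5. The 33 p53 targets (red) lie at or above 0 and reach 1.29, whereas most S phase (dark blue) and G2/M genes (light blue) lie below 0.

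Nearly all p53 targets had ratios above 0, and many passed the size rule. Of 35 listed genes 33 were counted, and 16 of these (48.5%) were higher in the p21-high cells, against 5.49% of all genes, and 0 were lower. The list's median log2 ratio was 0.50, with 32 of 33 ratios above 0 and 29 intervals wholly above it. Over all genes counted the median was 0.07 and the lower quartile -0.06, so most genes also lay above 0. The share of all genes with an interval above 0 was not counted. These intervals do not allow for UMIs that gather in few cells. Summed over the list the level was 5701 CPM against 4547 CPM. All 33 passed in both groups, and *Gdf15* and *Ddb2* were too sparse to be counted. These values share cells and total UMIs with the rule, and the list was written knowing that p21 is a p53 target.

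Of the targets that act on p53 or follow it closely, a pair passed the size rule. *Mdm2*, the ubiquitin ligase that degrades p53, was at 428 CPM against 210 CPM (log2 ratio 1.02, interval 0.97 to 1.07). *Trp53inp1*, which aids p53 in cell death and autophagy, was at 215 against 97.8 CPM (1.14, interval 1.07 to 1.21). *Ccng1*, which encodes cyclin G1 and acts in the *Mdm2* feedback, was at 498 against 371 CPM (0.42), and *Zmat3*, an RNA-binding target of p53, at 121 against 88.1 CPM (0.46). The last 2 fell short of 0.5, and the intervals of all 4 ratios lay above the all-gene median of 0.07.

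Death-associated targets divided into high and near-equal genes. The BH3-only gene *Pmaip1* (Noxa) had the highest ratio of the list, 1.29, but at only 45.9 against 18.8 CPM. The death receptor gene *Fas* (1.03), *Pidd1* of the caspase-2 platform (0.94), the receptor gene *Eda2r* (0.77), the Akt inhibitor *Phlda3* (0.72, 213 against 129 CPM), *Apaf1* of the apoptosome (0.60) and *Perp* (0.58) were also higher. *Bbc3* (Puma) was just under the size rule at 0.50 (24.6 against 17.4 CPM). *Bax*, which encodes the mitochondrial pore protein, was close to equal at 493 against 442 CPM (0.16), as was *Tnfrsf10b* at 0.21.

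Targets of metabolism, growth control and repair were mixed as well. *Steap3*, an endosomal iron reductase gene, had a ratio of 1.15, *Sesn2* of amino acid sensing 0.61, the antiproliferative *Btg2* 0.58 and the repair nuclease gene *Ercc5* 0.58. *Lif* (0.57), *Dcxr* (0.54) and *Ei24* (0.50) completed the 16. *Plk2*, *Polk*, *Pml*, *Ak1*, *Ninj1*, *Aen* and *Plk3* lay between 0.24 and 0.48. The damage-response genes *Xpc* (0.02), *Rrm2b* (0.08) and *Sesn1* (0.12) and the glycolysis regulator *Tigar* (0.00) had intervals that included 0. *Rps27l*, the listed target with the most UMIs, stood at 2218 against 2115 CPM (0.07), at the median of all genes. Of the 2 listed targets with a matching promoter window, *Ccng1* and *Rps27l*, neither passed the size rule.

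**Figure D3:**
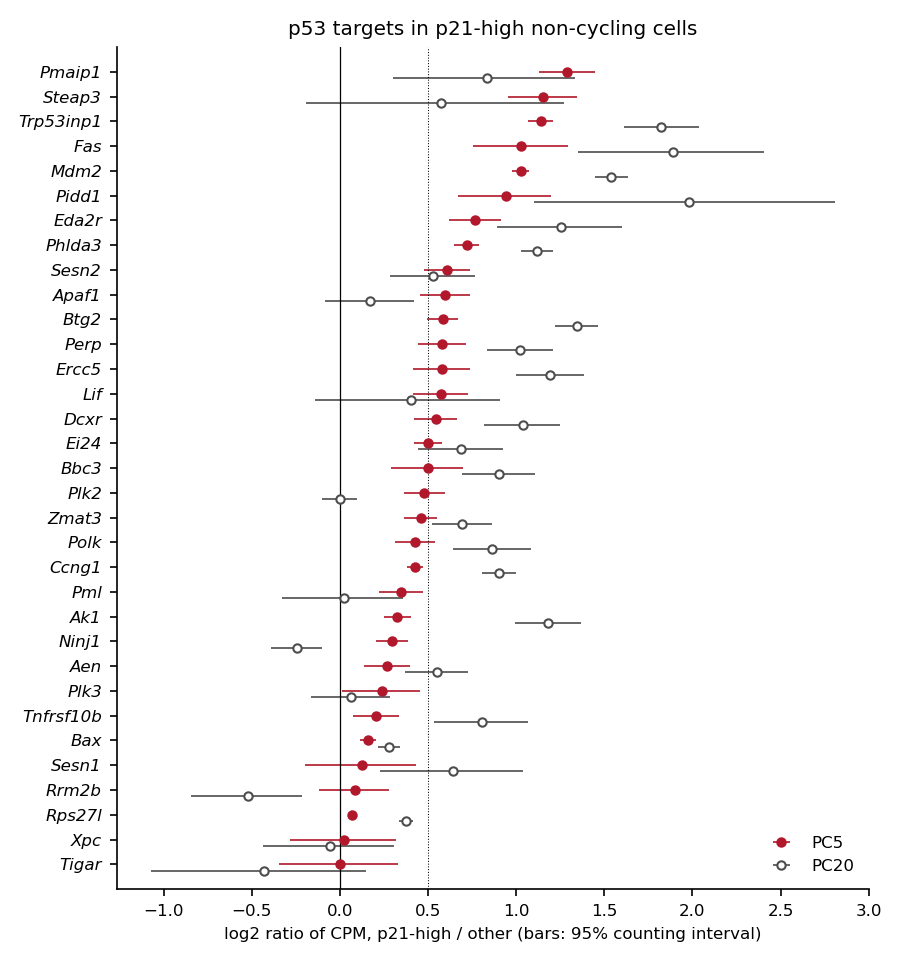
Log2 ratio of CPM (x axis), p21-high over other non-cycling cells, for the 33 p53 targets counted in PC5 (rows), with PC5 filled, PC20 open and bars for 95% counting intervals. In PC5 16 genes lie at or past the dotted line at 0.5, led by *Pmaip1* at 1.29, and *Tigar* and *Xpc* sit at 0.

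The p53 list's median lay above 0 at each depth and above the all-gene median under the split of UMIs. In the shallowest, middle and deepest parts of the cells the list's median was 0.63, 0.41 and 0.53. In the deepest part, where p21-high cells had a median of 25952 UMIs and the others 27789, *Mdm2* was at 406 against 210 CPM (log2 ratio 0.95) and *Trp53inp1* at 181 against 91.7 CPM (0.98). *Malat1* there was nearly equal, as given before. Measured only on UMIs that had not ranked the cells, 14 of 31 counted targets were higher, against 3.71% of all genes then counted, and the median was 0.44. With cells thinned and ranked again 13 of 30 were higher, against 3.85%, and *Apaf1* (0.48), *Ei24* (0.49) and *Lif* (0.50) fell just short of 0.5. Without the 25% of cells lowest in *Malat1*, 16 of 33 were higher, against 5.37%, and the median was 0.49. With a pseudocount of 1 on UMIs per 10000, which shrinks low genes, 2 targets and 0.0905% of all genes passed 0.5.

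Cell by cell the groups overlapped in their p53-list UMIs. Thinned to 8500 UMIs each, which left out 70 p21-high and 490 other cells, the p21-high cells held a median of 47 p53-list UMIs (21 at the lowest, 233 at the highest) and the others 38. The median was exceeded by 353 of 478 p21-high cells (73.8%), and the 90th percentile of the others by 133 (27.8%). So most p21-high cells were above the middle of the other cells, but most also lay within their range. *Mdm2* UMIs were seen in 408 of 478 thinned p21-high cells (85.4%, interval 81.9% to 88.4%) and in 72.8% of the others (71.5% to 74.1%). *Mdm2*, *Ccng1*, *Phlda3* and *Trp53inp1* were all seen in 238 (49.8%) against 24.6%. Free RNA can add UMIs to any droplet, and no cell type that should lack these genes was at hand to measure it.

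The cells at the top of the ranking were unlike each other. The highest p21-high cell had 61 *Cdkn1a*, 59 *Mdm2* and 43 *Trp53inp1* UMIs among 8656. The second had 14 *Cdkn1a* UMIs of 2957, with none of *Mdm2* or *Trp53inp1* and 1 of *Malat1*. The next had 48 *Cdkn1a* and 64 *Mdm2* UMIs among 12342, and the one after it 18 *Cdkn1a* UMIs of 5436 and no *Mdm2*. High *Cdkn1a* thus came with many *Mdm2* UMIs in 2 of these cells, whereas the other two were shallow and had none. Without the highest cell, 15 p53 targets and 471 genes in all were higher.

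Some other inhibitors of cyclin-dependent kinases were higher too. Of 6 counted, 3 (50%) passed 0.5 against 5.49% of all genes, and 0 were lower. *Cdkn2a*, the gene of p16 and p19Arf, stood at 991 CPM against 606 CPM (log2 ratio 0.71, interval 0.68 to 0.74). Its neighbour *Cdkn2b*, the p15 gene, was at 119 against 74.3 CPM (0.68), and *Cdkn1c* (p57), counted through the p21-high cells alone, at 14.6 against 9.34 CPM (0.65). *Cdkn1b* (p27), like *Cdkn1c* a relative of p21 in the Cip/Kip family, had a ratio of 0.37, *Cdkn2d* 0.14 and *Cdkn2c* 0.02, and these 3 did not pass. The *Cdkn2a* ratio was 0.37 in the shallowest, 0.62 in the middle and 0.78 in the deepest part of the cells. Since 3′ tags do not separate p16 from p19Arf transcripts, the value covers both.

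Among G1 regulators *Rb1*, the retinoblastoma gene that p21 keeps active, was the 1 of 12 counted genes that passed (8.33%, near the 5.49% of all genes), at 34.5 against 18.4 CPM (log2 ratio 0.90). The D cyclin genes did not pass, with *Ccnd1* at 1892 against 2009 CPM (-0.09), *Ccnd2* at -0.12 and *Ccnd3* at -0.25. *Cdk4* was equal (148 CPM in both) and *Ccne1* lay at -0.41. The list's median was -0.03.

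Some S phase and G2/M genes were lower in the p21-high cells, and most did not pass the size rule. Summed over the S phase list, the level was 295 CPM in p21-high, 387 CPM in other non-cycling and 1031 CPM in cycling cells. For the G2/M list it was 1008, 1160 and 3648 CPM. In the deepest part of the cells the S phase list was at 302 against 400 CPM with a median ratio of -0.21, and the G2/M list at 969 against 1131 CPM with a median of -0.29. Of 43 S phase genes 21 were counted, 4 of them (19.0%) lower against 1.04% of all genes and 0 higher. These were *Hells* (log2 ratio -1.27), a chromatin remodeller gene, *Rrm1* (-0.74) of nucleotide synthesis, *Uhrf1* (-0.65) and the replication helicase gene *Mcm2* (-0.61). The list's median was -0.33. All 4 were below 10 CPM in the p21-high cells except *Rrm1*, at 12.3 CPM. *Hells* and *Mcm2* were counted through the other cells alone, and of 15 S phase genes that passed in both groups 2 were lower.

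Of 54 G2/M genes 30 were counted, with a median of -0.27, 9 of them (30.0%) lower, against 1.04% of all genes. The 2 higher genes (6.67%) were close to the 5.49% of all genes. *Birc5* (survivin, -1.27), *Anln* (-0.95), *Ccnb2* (cyclin B2, -0.95), *Cdca3* (-0.86), *Cenpa* (-0.71), *Tpx2* (-0.60), *Tacc3* (-0.60), *Ube2c* (-0.52) and *Smc4* (-0.52) were lower. *Birc5* and *Anln* were counted through the other cells alone, and of 27 that passed in both groups 7 were lower. *Gtse1* (0.84, 28.7 CPM in the p21-high cells), whose product binds p53, and *Psrc1* (53.4 against 32.5 CPM, 0.72), a spindle gene known as a p53 target, were higher. Both groups had been chosen for 0 UMIs of *Mki67* and *Top2a*, so these genes were already low in the contrast. With cells thinned and ranked again, 2 S phase and 5 G2/M genes were lower, against 0.659% of all genes then counted. When 0 UMIs were also required of *Cdk1*, *Ccnb1*, *Ccnb2*, *Cenpf*, *Birc5* and *Rrm2*, which left 208 p21-high and 1869 other cells, 1 S phase and 1 G2/M gene were lower, against 2.43% of the 8492 genes then counted. Of 33 counted p53 targets 18 were higher, against 9.27% of these genes. *Birc5* and *Ccnb2*, among the 9 lower G2/M genes, were at 0 by this stricter rule and could not be counted. Part of the fall in lower G2/M genes was thus fixed in advance. The numbers of S phase and G2/M genes counted in thinned cells or under the stricter rule are not given here. Their lower genes therefore cannot be read as shares.

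Secreted factors linked to senescence were higher in part. Of 41 listed 30 were counted, 9 of them (30.0%) higher against 5.49% of all genes and 0 lower, with a median of 0.20. The chemokine gene *Cxcl1* (log2 ratio 1.12) and the adhesion receptor gene *Icam1* (0.82) were expressed at 19.2 and 38.7 CPM in the p21-high cells. *Cxcl1* was counted through the p21-high cells alone, and of 28 that passed in both groups 8 were higher. The protease gene *Mmp3* was at 74.3 against 42.1 CPM (0.82), and *Igfbp3*, an inhibitor of insulin-like growth factors and itself a p53 target, at 422 against 263 CPM (0.68), or 0.38 on UMIs that had not ranked the cells. *Ccl8* (0.63), *Plau* (0.58), *Lif* (0.57) and *Areg* (0.50) were also among them. *Spp1* (osteopontin), the one with the most UMIs, was at 6416 against 4684 CPM (0.45), just under the size rule. The factor named most often in senescence, *Il6*, was nearly absent from both groups (4.83 against 6.55 CPM). *Igfbp4* (-0.45) and the protease inhibitor gene *Timp1* (-0.44, 399 against 541 CPM) were on the low side.

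The UMIs of *Cxcl1* and *Mmp3* sat in few cells. The 28 richest of the 548 p21-high cells held 76.6% of their *Cxcl1* UMIs and 64.9% of *Mmp3*, but 22.2% of *Mdm2*, 18.6% of *Cdkn2a* and 11.6% of *Cdkn1a*. *Icam1* (34.6%) and *Igfbp3* (31.6%) were spread more widely. In the other non-cycling cells the richest 5% likewise held 73.3% of *Cxcl1*. The sums of both genes therefore describe few cells.

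Among nuclear and lysosomal markers of senescence, the cathepsin gene *Ctsb* was higher at 826 against 578 CPM (log2 ratio 0.52), the only 1 of 6 past the size rule (16.7%, against 5.49% of all genes). *Glb1*, the gene of senescence-associated beta-galactosidase, was at 28.9 against 23.6 CPM (0.29). *Lmnb1* (lamin B1, -0.43), *Hmgb2* (-0.47) and *Hmgb1* (-0.20), which are known to decline in senescence, had ratios below 0 that did not reach -0.5. *Lmnb1* and *Hmgb2* are also genes of dividing cells.

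Most interferon genes did not pass the size rule. Of 18 listed 17 were counted, and 3 (17.6%) passed 0.5, against 5.49% of all genes. All 17 ratios were above 0, with a median of 0.33 beside 0.07 over all genes. The lowest was 0.05, and the lower quartile of all genes was -0.06. These were *Ifit2* (log2 ratio 1.00), *Rsad2* (0.88, 83.3 against 45.4 CPM) and *Usp18* (0.57). *Rsad2* was at 0.47 with cells thinned and ranked again, and was seen in 24.3% of thinned p21-high cells against 22.3% of the others. *Isg15* was at 181 against 132 CPM (0.46) and *B2m* at 572 against 463 CPM (0.31). The first 2 again sat in few cells, the 28 richest holding 64.2% and 63.3% of UMIs. In PC20 the list's median was 0.02, with 10 of 17 ratios above 0.

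**Figure D4:**
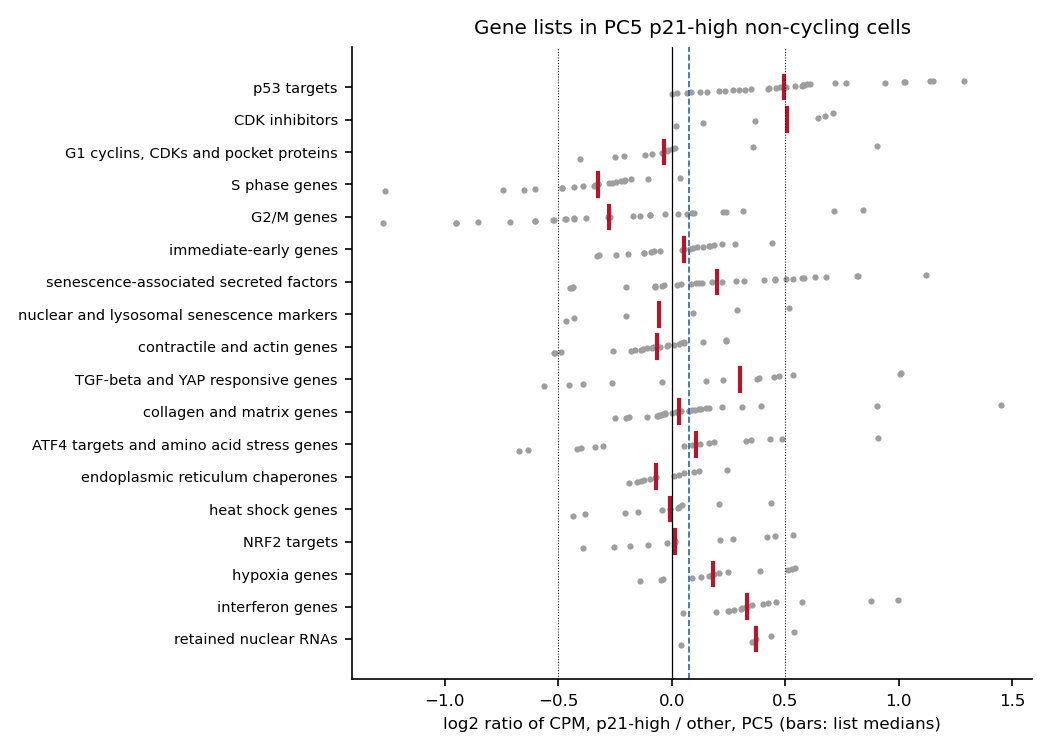
Log2 ratio of CPM (x axis), p21-high over other non-cycling PC5 cells, for each counted gene (grey points) of the lists with at least 5 such genes (rows), with list medians as red bars, the median of all genes as a dashed blue line and dotted lines at 0.5 and -0.5. The medians run from -0.33 for S phase genes to 0.51 for CDK inhibitors.

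Genes answering to TGF-beta and YAP gave a mixed picture. *Tgfbi* (120 against 59.7 CPM, log2 ratio 1.01) and *Id2* (1.01) were higher, the YAP regulator *Amotl2* (-0.56) was lower, and the YAP target *Ctgf* lay at -0.45. *Id2* was counted through the p21-high cells alone. Of 14 counted 3 (21.4%) were higher and 1 (7.14%) lower, against 5.49% and 1.04% of all genes, with a median of 0.30. In PC20, 10 of 12 counted (83.3%) were higher, against 8.9% of all genes there, and the median was 0.65. *Ctgf* was counted there through the p21-high cells alone. Of 11 that passed in both groups in PC20, 9 (81.8%) were higher, against 6.67% of all genes that did so. The ligand gene *Tgfb2*, named here after its value was seen, was at 11.5 against 2.40 CPM (log2 ratio 2.26, interval 1.91 to 2.60). It was seen in 12.0% of p21-high cells against 4.02% of the others and so was counted only through the cells where it was high. Collagen and matrix genes had a median of 0.03. *Col6a3* (36.3 against 13.3 CPM, 1.45) and *Col12a1* (0.90) were higher, but the 28 richest cells held 61.3% of *Col6a3* UMIs. The abundant *Col1a1* (0.15), *Col3a1* (-0.06), *Col4a1* (0.00) and *Fn1* (0.40) stayed below the size rule.

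Contractile and actin genes had a median of -0.07, and of 22 counted 0 were higher and 2 (9.09%) lower, against 1.04% of all genes. *Tagln* (SM22, an actin-binding protein of smooth muscle) was at 163 against 234 CPM (log2 ratio -0.52), and *Acta2* (smooth muscle actin) at 43.5 against 62.2 CPM (-0.52). The *Tagln* ratio was -1.05 in the shallowest part of the cells and -0.20 in the deepest. With cells thinned and ranked again *Tagln* was at -0.39 and *Acta2* at -0.11. *Acta2* turned to 0.046 when ranking and measuring used different UMIs, and the 28 richest cells held 55.0% of its UMIs. The member with the most UMIs, *Actb*, was at 7823 against 9371 CPM (-0.26).

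Stress programmes other than p53 had medians between -0.07 and 0.18. Over all genes 5.49% were higher and 1.04% lower. Of 16 counted ATF4 targets and amino acid stress genes (median 0.11), *Ddit3* (CHOP) was higher at 43.8 against 23.4 CPM (log2 ratio 0.91). The serine synthesis genes *Phgdh* (35.9 against 57.1 CPM, -0.67) and *Psat1* (60.8 against 94.3 CPM, -0.63) were lower. Endoplasmic reticulum chaperones (13 counted, median -0.07), heat shock genes (11, median -0.01) and immediate-early genes (21, median 0.06) had 0 members past the size rule in either direction. Of the immediate-early genes *Jun* had a ratio of 0.44 and *Fos* of -0.32. Of 12 NRF2 targets only *Gclc* (0.53), which starts glutathione synthesis, passed. Of 14 hypoxia genes *Ankrd37* (0.54), *Ero1l* (0.53) and *Ndrg1* (0.51) did, with a median of 0.18 and 21.4% of the list higher.

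Most canonical pericyte markers were sparse in both groups. *Pdgfrb*, the pericyte growth factor receptor gene, was at 43.2 against 48.1 CPM (log2 ratio -0.16) and seen in 43.2% of p21-high cells against 52.5% of the others, with *Cspg4* at 4.05 against 4.34 CPM and *Rgs5* at 4.38 against 2.12 CPM. *Abcc9*, *Kcnj8*, *Vtn* and *Higd1b* had 0 UMIs in the p21-high cells, which at a floor of 3 counts allows up to 0.337 CPM. Of 12 pericyte markers 4 were counted, and *Notch3* (0.66) and *Ndufa4l2* (0.57) were higher, against 5.49% of all genes. Summed over the list, the level was 160 against 141 CPM.

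For other cell types, 5 of 6 microglia and leukocyte markers, *Ptprc* among them, were at 0, and *Csf1r* was at 1.35 CPM. The oligodendrocyte markers summed to 1.35 against 1.52 CPM, with *Mag* and *Mobp* at 0. The endothelial markers summed to 227 against 216 CPM, nearly all of it *Cdh5* (193 against 182 CPM), with *Pecam1* at 0.674 CPM, *Cldn5* at 0.112 CPM and *Tek* at 0. The fibroblast markers summed to 1367 against 1408 CPM, led by *Col3a1*, with *Pdgfra* at 106 against 98.8 CPM and *Dcn* at 74.9 against 68.9 CPM. The astrocyte markers summed to 108 against 140 CPM, mostly *Slc4a4* (-0.45), with *Aldh1l1* at 12.4 against 8.56 CPM (0.53) and *Gfap* and *Aqp4* at 0.112 CPM each. Of smooth muscle markers only *Acta2* and *Tagln* were counted, and *Myh11* was at 0.225 CPM. At the level of RNA, few of the usual pericyte markers were thus seen in these cells, and *Pdgfra*, *Cdh5* and *Slc4a4* UMIs were found in both groups. The study itself based the label on expression of PDGFRβ, the product of *Pdgfrb*, and also stained cultured PCs for this protein.

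By a rule of size, the 15 genes with the highest and the 15 with the lowest ratio among genes of at least 50 CPM in the higher group were listed. *Mdm2* and *Trp53inp1* were among the highest, as was *Trp53i11* (log2 ratio 0.97), another p53-induced gene. *Cox6b2*, a subunit gene of cytochrome c oxidase otherwise typical of testis, led with 110 against 49.7 CPM (1.15, interval 1.05 to 1.25). *Trf* (transferrin, 1.14), *Plxdc2* (1.10), *Ccdc3* (1.01), *Lgi2* (0.91), the arginine synthesis gene *Ass1* (0.87) and the interferon-inducible *Ifi207* (0.87) came with them. *Tgfbi* and *Rsad2*, already described, and 2 genes taken up next were on the list as well. *Trf* was concentrated, 66.7% of its UMIs lying in the 28 richest cells.

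*Thbs2* (thrombospondin 2) was at 226 against 114 CPM (log2 ratio 0.99) and seen in 66.5% of thinned p21-high cells against 45.5% of the others. *Serpine2* (protease nexin 1) was at 270 against 136 CPM (0.99) and seen in 61.3% against 46.9%. Both were thus detected in most p21-high cells, unlike *Trf*, seen in 26.6% against 17.0%.

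Among genes of at least 50 CPM in the higher group, the lowest ratio belonged to *Stmn2*, a microtubule regulator gene, at 22.6 against 52.2 CPM (log2 ratio -1.21), but the 28 richest p21-high cells held 87.1% of its UMIs. It was counted through the other cells alone. *Podxl*, the gene of the sialomucin podocalyxin, was lower in a wider set of cells, at 103 against 189 CPM (-0.88, interval -0.98 to -0.78), and seen in 44.6% of thinned p21-high cells against 62.4%. Its ratio was -0.58 in the shallowest, -0.64 in the middle and -1.17 in the deepest part of the cells. *Cyp26b1*, which degrades retinoic acid (-0.92), the water channel gene *Aqp1* (-0.86), *Sh3bp5* (-0.65), *Sorbs2* (-0.61), *Prr5* (-0.54), the caveolar *Cavin2* (-0.54) and the forkhead gene *Foxd1* (-0.51) were also lower. *Phgdh*, *Psat1*, *Amotl2*, *Tagln* and *Acta2*, given before, were on the list as well. Several lost the call with cells thinned and ranked again, *Aqp1* at -0.47, *Sh3bp5* at -0.45, *Sorbs2* at -0.38, *Psat1* at -0.37 and *Amotl2* at -0.32. On UMIs that had not ranked the cells *Prr5* was at -0.46, *Cavin2* at -0.45, *Phgdh* at -0.42 and *Foxd1* at -0.30. *Stmn2*, *Cyp26b1* and *Podxl* stayed past -0.5 in both settings.

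Many of these levels followed the *Cdkn1a* share across all non-cycling cells and did not begin at the limit of the rule. With the 5475 cells ranked and cut into deciles, *Mdm2* was at 130 CPM in decile 1, 193 in decile 5, 325 in decile 9 and 428 CPM in decile 10, the p21-high cells. *Trp53inp1* went from 55.1 to 215 CPM and the p53 list from 3824 to 5701 CPM, both higher in each decile than in the one before. *Phlda3* lay between 113 and 151 CPM in the first 9 deciles and at 213 CPM in the last. *Cdkn2a* was at 663 CPM in decile 1, 494 in decile 2, 751 in decile 9 and 991 CPM in decile 10. The S phase list was at 508 CPM in decile 1 and 295 CPM in decile 10. *Podxl* was highest in decile 2 (223 CPM) and lowest in decile 10 (103 CPM). Decile 1 was the shallowest, with a median of 12094 UMIs, and the part of depth in its values was not tested.

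**Figure D5:**
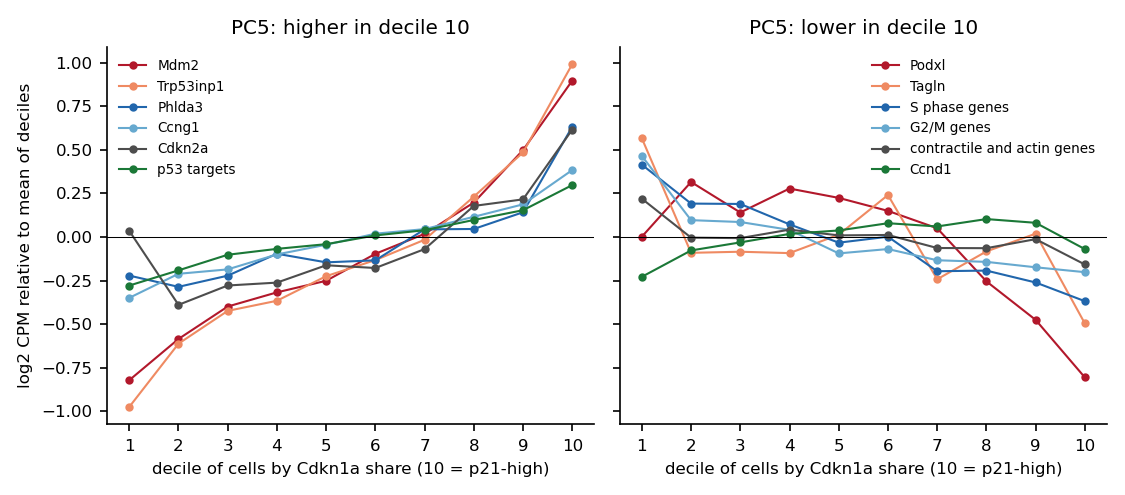
Log2 CPM relative to the mean of the 10 deciles (y axis) against deciles of PC5 non-cycling cells by *Cdkn1a* share (x axis, 10 is the p21-high cells), for genes and summed lists higher (left) or lower (right) in decile 10. *Mdm2* and *Trp53inp1* climb through all deciles, *Phlda3* mainly in the last, and *Cdkn2a* and *Tagln* are higher in decile 1 than in decile 2. *Ccnd1* (right) does not fall across the deciles, being lowest in decile 1 (1695 CPM) and at 1892 CPM in decile 10.

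The same rule was applied to PC20, a library it had not been made on, and gave 133 p21-high cells of 1321 non-cycling ones. *Cdkn1a* was lower there as a level, 694 CPM in the p21-high and 121 CPM in the other cells, and 375 non-cycling cells had no *Cdkn1a* UMI. The p21-high cells of PC20 were not shallower than the others (median 28685 against 25802 UMIs). In PC20, 862 of 9682 genes counted (8.9%) were higher and 613 (6.33%) lower, and past a ratio of 1 there were 160 (1.65%) and 88 (0.909%). Of the higher genes 257 were counted through the p21-high cells alone, and of the lower genes 129 through the other cells alone. Of the 9072 genes that passed in both groups 605 (6.67%) were higher and 483 (5.32%) lower. More genes thus passed the size rule in this smaller set of cells.

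The p53 targets were also mostly higher in the p21-high cells of PC20. Of 34 counted 23 (67.6%) were higher, against 8.9% of all genes there, and 1, *Rrm2b* (log2 ratio -0.52), was lower, with a median of 0.69. *Fas*, *Pidd1* and *Steap3* were counted there through the p21-high cells alone. Of 31 targets that passed in both groups 20 (64.5%) were higher, against 6.67% of all genes that did so. *Mdm2* was at 298 against 102 CPM (1.54), *Trp53inp1* at 62.3 against 17.6 CPM (1.82) and *Phlda3* at 294 against 135 CPM (1.12). Of 33 targets counted in both libraries, 14 were higher in both, 2 in PC5 alone and 8 in PC20 alone. The 2 were *Apaf1* and *Lif*, which had PC20 ratios of 0.17 and 0.40. The 8 included *Ak1*, *Ccng1* and *Polk*. The 14 included *Fas*, *Pidd1* and *Steap3*, counted in PC20 through the p21-high cells alone. Over all 8295 genes counted in both libraries, 378 (4.56%) were higher in PC5 and 635 (7.66%) in PC20, 128 of them in both. Whether any ratio differed between libraries was not tested.

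Over all genes, 8295 were counted in both libraries. Of these, 378 were higher in PC5 and 635 in PC20, with 128 in common. The 128 made up 33.9% of the PC5 genes, beside 7.66% of all 8295 genes higher in PC20. They made up 20.2% of the PC20 genes, beside 4.56% of all 8295 higher in PC5. Of the lower genes, 75 in PC5 and 371 in PC20, 25 were in common. The 25 made up 33.3% of the PC5 genes, beside 4.47% of all 8295 lower in PC20. They made up 6.74% of the PC20 genes, beside 0.904% of all 8295 lower in PC5. In opposite directions, 9 genes were higher in PC5 and lower in PC20, and 4, *Acta2* among them, the reverse. Outside the list of p53 targets, *Cox6b2* (log2 ratio 2.40 in PC20), *Serpine2* (2.45), *Ass1* (1.21), *Gtse1* (1.59), *Psrc1* (0.86), *Rb1* (0.63), *Id2* (1.14) and *Ctsb* (0.59) were higher in both libraries. In PC20 *Gtse1*, *Cox6b2* and *Serpine2* were counted through the p21-high cells alone, as *Id2* was in PC5. *Hells* (-1.07), *Mcm2* (-1.29), *Ccnb2* (-0.61), *Tpx2* (-0.70) and *Phgdh* (-0.54) were lower in both. *Podxl* was at -0.42 and *Igfbp3* at -0.25 in PC20.

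Several genes described for PC5 were at or near 0 in PC20. *Cdkn2a* and *Cdkn2b* had 0 UMIs in the p21-high cells of PC20, which at the floor of 3 counts allows up to 0.708 CPM. A *Cdkn2a* UMI was seen in 0 of 121 thinned cells, which by the same floor allows up to 2.48% of cells with a UMI and sets no limit on cells that express the gene. *Tagln* and *Plxdc2* also had 0, and *Tgfbi*, *Lgi2*, *Thbs2* and *Trf* were below 3 CPM. The high *Cdkn2a* level of the p21-high cells was thus seen in PC5 and could not be compared in PC20. S phase genes had a median of -0.62 in PC20 with 15 of 28 lower (53.6%, against 6.33% of all genes), and G2/M genes one of -0.10 with 6 of 32 lower (18.8%). The lower *Chaf1b*, *Prim1* and *Ung* (S phase) and *Ect2* and *Kif23* (G2/M) were counted through the other cells alone. Of genes that passed in both groups, 12 of 23 S phase and 4 of 28 G2/M genes were lower, against 5.32% of all genes.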

How the data were processed

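Single-cell libraries of cultured mouse brain PCs were analysed, 1 for PC5 and 1 for PC20. The deposited values are raw UMI counts per gene and barcode, made by the authors with Cell Ranger 5.0 on mm10 according to the submitters' processing notes, with cell calling but no normalization. Depth was 223978480 UMIs in PC5 and 191306354 in PC20. Each library listed 31053 genes, of which 31011 were in GENCODE M21 (GRCm38).

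Members, gene lists and settings were chosen with earlier results of these data known. Cells needed over 1000 genes, and fewer than 20% of their UMIs from mitochondrial genes. CPM was computed from UMIs summed per group. Ratios carry exact conditional binomial intervals, levels exact Poisson intervals and shares Clopper-Pearson intervals. Genes needed a UMI in 10% of cells of either group and over 3 UMIs in each, and were called at a log2 ratio of 0.5 or -0.5. Named genes were the rule genes, list members and the 15 highest and 15 lowest ratios at 50 CPM or more, without pseudogenes, unnamed models and mitochondrial genes. *Tgfb2* was named in addition, after its value was seen. Some genes that these rules name are counted but not reported here. *Aldoa* was not matched to 1 symbol and was left out. Thinning used 8500 UMIs. The alternatives were other cell filters, limits, contrasts, scalings and a random split of UMIs. Ratios were checked on simulated data. Python 3.11.15, NumPy 2.4.6 and SciPy 1.17.1 were used.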

Additional observations from a re-analysis of the deposited data

Results flagged for a closer look

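The log2 ratio of *Acta2* was -0.52 in PC5 (43.5 against 62.2 CPM) and 0.70 in PC20 (91.8 against 56.5 CPM), in opposite directions and past 0.5 in both libraries. The PC5 ratio was -0.11 with cells thinned to 1 depth and ranked again, and 0.046 on UMIs that had not ranked the cells, so the opposite direction did not hold in PC5 under the second of these. In PC20 the richest 5% of p21-high cells held 71.2% of their *Acta2* UMIs, and those of the other cells 65.0%. *Acta2* was seen there in 22.3% of thinned p21-high cells against 16.9% of the others, so the PC20 ratio describes few cells. The difference between the libraries was not tested, and passage and isolation cannot be told apart.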

How the results depend on the processing

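Most alternatives changed 1 choice. The stricter cell filter changed the gene and mitochondrial limits together, thinning also left out shallow cells and ranked the rest again, and splitting UMIs also lowered the depth. The p53 targets' median stayed between 0.42 and 0.89 in all but the pseudocount of 1 (0.19). The log2 ratio of *Cdkn1a* (1.60) was 1.78 in the top 5%, 1.49 in the top 20%, 1.75 in thinned cells, 1.52 within deciles of depth, 1.22 with split UMIs, 4.64 against the lowest decile, 1.71 as a mean over cells, 1.55 without mitochondrial and ribosomal protein genes, 1.53 when centred on the median gene and 1.48 with the pseudocount. Counts that moved by over 1.5 times follow as genes higher, genes lower, S phase genes lower, G2/M genes lower and genes higher in both libraries. The 485 higher genes became 788 (top 5%), 253 (top 20%), 269 (thinned), 265 (split UMIs), 787 (8 cycling genes at 0), 1045 (lowest decile), 1590 (UMI in 1% of cells), 225 (25% of cells), 58 (threshold of 1), 1896 (threshold of 0.25) and 8 (pseudocount). The 92 lower genes became, in the same order, 208, 39, 46, 57, 206, 312, 399, 33, 6, 559 and 0. They became 567 against all other kept cells, 160 when centred, where 335 were higher, and 164 without the 25% lowest in *Malat1*. The share of higher genes among those called was thus smaller after centring. The 4 S phase genes lower became 2 (thinned), 2 (split UMIs), 1 (8 cycling genes), 16 (lowest decile), 29 (all other kept cells), 7 (centred), 13 (1% of cells), 1 (25% of cells), 1 and 14 (thresholds of 1 and 0.25), 0 (pseudocount) and 9 (*Malat1*). The 9 G2/M genes became 5 (thinned), 5 (deciles of depth), 1 (8 cycling genes), 21 (lowest decile), 46 (all other kept cells), 27 (1% of cells), 3 (25% of cells), 1 and 16 (thresholds) and 0 (pseudocount). With the 8 cycling genes at 0, *Birc5* and *Ccnb2* could not be counted. The 128 genes higher in both libraries became 216 (top 5%), 64 (top 20%), 49 (thinned), 73 (split UMIs), 376 (lowest decile), 215 (all other kept cells), 368 (1% of cells), 58 (25% of cells), 14 and 659 (thresholds) and 1 (pseudocount). The 16 p53 targets higher became 5 and 25 at the thresholds and 2 with the pseudocount. *Acta2* reversed to 0.046 with split UMIs. The causes were not tested.

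The last 3 alternatives, without barcodes found in both libraries, without the highest p21-high cell and without the 25% of cells lowest in *Malat1*, were added after seeing the data. No paired analysis was possible because each passage has 1 library. With 1 library per passage the spread between cultures is unknown, and a level near 3 UMIs is not resolved.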
